A study of Rattus norvegicus with 6 samples.

Results

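Complement and coagulation genes other than the fibrinogen chains were examined in the kidneys of diabetic rats that had received Shenqi Jiangtang Granule (SJG), a granule prepared from a mixture of medicinal herbs, and of diabetic rats that had received saline. The members were a list of 39 genes, chosen by gene symbol. Of these, 32 had a transcript cluster, the probe set of the array for a transcript, named with that gene alone, out of 18166 genes in all, and they comprised 14 complement genes and 18 genes of coagulation, the kinin system and fibrinolysis. C2, C4a, C4b, Cfi, C5ar1, Cd59 and Kng2 had no transcript cluster of their own under this rule and were not analysed here. For Cd59 the array annotation names Cd59b, a symbol outside the list.

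Both groups were Sprague Dawley rats, labelled as 17 weeks of age, in which diabetes had, according to the methods, been induced by injection of streptozotocin, a toxin of the insulin-producing beta cells. The SJG group comprised 3 arrays of rats given SJG by mouth for several weeks, at a dose that the sample labels do not state and that the text of the study describes as the higher of those it used, and the diabetic group comprised 3 arrays of rats given saline. Healthy rats were not analysed here, so all 6 arrays come from diabetic animals. The labels number the samples without naming animals, so the p-values reflect the variation among the arrays alone, part of which may be technical. The tissue was kidney, described in the methods as cortex, and the RNA of all its cells was measured together on Affymetrix Rat Gene 2.0 ST arrays, so fewer cells of a type and less RNA per cell cannot be told apart. Signals are on a log scale, taken as log2, and groups are compared gene by gene. Levels of different probe sets depend on their probes and were ranked only to choose a transcript cluster per gene, to filter genes and to choose which values to print. Values of single arrays are given in the order of replicates 1, 2 and 3.

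Complement is a cascade of plasma and membrane proteins that marks targets for uptake and can perforate membranes. C1q binds a target and activates the proteases C1r and C1s, the central component C3 is then cleaved, and the terminal components assemble into a pore, while inhibitors hold the cascade in check on host cells. Coagulation is a related protease cascade that starts from tissue factor, forms thrombin, and is opposed by anticoagulant proteins and by plasminogen activators that dissolve clots. Most plasma components of both cascades are made in the liver, but C3 is also made by kidney tubules, C1q largely by macrophages, and urokinase is a known product of kidney tubules.

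The signals of all genes had similar medians, from 4.68 to 4.88 in SJG arrays and from 4.70 to 4.85 in diabetic arrays. The 10 measured markers of kidney segments, such as Lrp2 of the proximal tubule and Umod of the thick limb, had a mean log2 signal of 10.04 to 10.35 in SJG arrays and 10.03 to 10.26 in diabetic arrays. Among the 10, all SJG arrays lay above all diabetic arrays for Lrp2 (log2 fold change 0.10) and Umod (0.37), where 5.2% of all genes did. Groups were compared with limma, and genes are called lower or higher below when the unadjusted p was under 0.05 and the fold change above 1.5, the thresholds in the study's methods. After adjustment over all genes no gene passed 0.05 (lowest adjusted p = 0.152 in limma), and the unmoderated test left 2. In limma 1133 genes had an unadjusted p under 0.05, where 908 would be reached by the threshold alone. The sample titles carry a code that the sources do not explain, whose number differs between the groups, and whatever that number stands for and the SJG treatment cannot be told apart.

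Of the 14 complement members 2 were lower in SJG-treated rats, C3 and the C1 inhibitor gene Serping1, and of the 18 coagulation members 2 were lower, the kininogen gene Kng1 and A2m. Over all genes 2.12% were lower and 0.991% higher at these thresholds, and no member was higher. The median log2 fold change was -0.52 over the complement members and -0.07 over the coagulation members, against 0.0018 over all genes tested. The log2 fold change was below 0 for 13 of the 14 complement members, for 12 of the 18 coagulation members and for 9032 of the 18166 genes. All 3 SJG arrays lay below all 3 diabetic arrays for 3 members, C3, Kng1 and C1qc, where 5.3% of all genes did, and above them for 1 member, Proc, where 5.2% of all genes did.

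**Figure D1:**
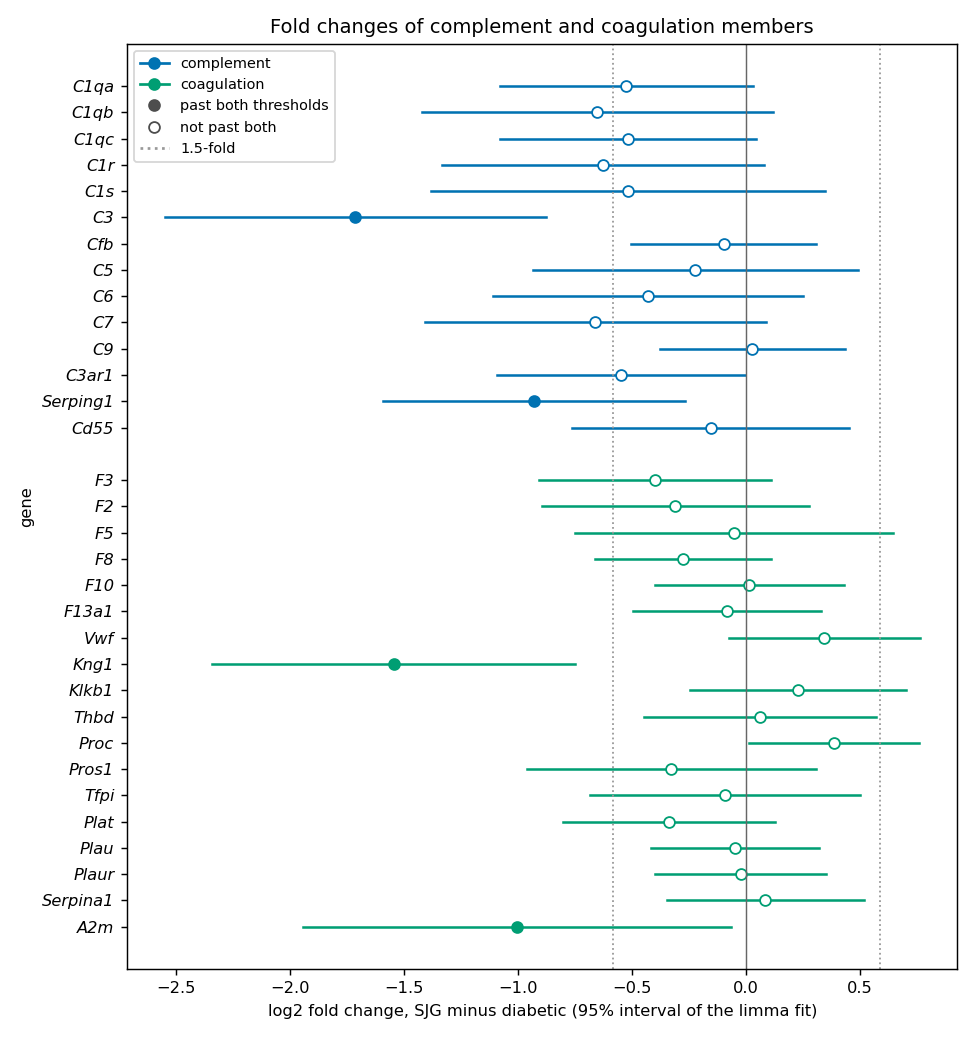
Log2 fold changes of the 32 measured members (x axis, SJG minus diabetic, with the 95% interval of the limma fit), one row per gene in order of role, with dotted lines at a fold change of 1.5. Filled points mark C3, Serping1, Kng1 and A2m, and 13 of the 14 complement points lie left of 0.

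C3 encodes the component on which all routes of complement activation converge, and it had the largest decrease of the 32 members. Its log2 signal was 5.66, 5.48 and 5.80 in the SJG arrays, against 7.95, 7.91 and 6.23 in the diabetic arrays. Every SJG array was below every diabetic array, with diabetic replicate 3 much closer to the SJG arrays than the other two. The mean was 5.65 ± 0.161 with SJG and 7.36 ± 0.978 in the diabetic rats (SD, n = 3 each), a log2 fold change of -1.71 (standard error 0.380, 3.28-fold lower, limma adjusted p = 0.635). C3 passed both thresholds with each array left out in turn.

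Kng1 encodes a kininogen, the precursor from which kallikreins release vasoactive kinins and a cofactor of contact activation. Its log2 signal was 3.40, 2.88 and 3.004 in the SJG arrays, against 5.22, 5.09 and 3.61 in the diabetic arrays. As for C3, the groups did not overlap, and diabetic replicate 3 was the diabetic array nearest to the SJG arrays. The means were 3.09 ± 0.273 with SJG and 4.64 ± 0.893 in the diabetic rats (SD, n = 3 each), a log2 fold change of -1.55 (standard error 0.362, 2.92-fold lower, limma adjusted p = 0.669). Kng1 also passed both thresholds with each array left out in turn. Kng2, its neighbour on the chromosome and a closely related gene, had no transcript cluster of its own. Whether the probes of Kng1 also read transcripts of Kng2 was not tested.

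Promoter windows of C3 and Kng1 are shown because these genes combined a call with groups that did not overlap, and those of C1qa and C1qb because they encode chains of the same protein and lie next to C1qc on the chromosome. The sequences are from RefSeq (build GRCr8), cover 250 bases before to 50 bases after the start of the gene, and are written 5′ to 3′ on the strand of the gene, with matches to the searched motifs in capitals. The windows are C3 at chr9:2201290-2201589 (minus strand), Kng1 at chr11:91340099-91340398 (minus strand), C1qa at chr5:154419884-154420183 (minus strand) and C1qb at chr5:154407778-154408077 (minus strand).
C3: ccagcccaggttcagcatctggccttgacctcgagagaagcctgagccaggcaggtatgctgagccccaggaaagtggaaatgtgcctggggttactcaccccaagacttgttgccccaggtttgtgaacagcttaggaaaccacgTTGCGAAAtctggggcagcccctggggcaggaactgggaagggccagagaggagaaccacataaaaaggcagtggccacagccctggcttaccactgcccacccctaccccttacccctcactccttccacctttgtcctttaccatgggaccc
Kng1: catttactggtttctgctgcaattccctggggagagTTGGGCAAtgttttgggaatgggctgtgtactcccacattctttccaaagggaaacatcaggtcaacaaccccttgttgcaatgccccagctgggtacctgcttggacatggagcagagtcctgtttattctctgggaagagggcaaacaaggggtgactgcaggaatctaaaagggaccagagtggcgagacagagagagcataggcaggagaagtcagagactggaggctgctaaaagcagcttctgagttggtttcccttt
C1qa: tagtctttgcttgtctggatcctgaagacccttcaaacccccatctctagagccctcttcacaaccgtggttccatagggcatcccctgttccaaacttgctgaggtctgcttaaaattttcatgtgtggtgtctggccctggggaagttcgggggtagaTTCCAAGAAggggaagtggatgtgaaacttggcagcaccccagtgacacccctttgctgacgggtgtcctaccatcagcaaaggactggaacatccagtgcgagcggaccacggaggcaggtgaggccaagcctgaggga
C1qb: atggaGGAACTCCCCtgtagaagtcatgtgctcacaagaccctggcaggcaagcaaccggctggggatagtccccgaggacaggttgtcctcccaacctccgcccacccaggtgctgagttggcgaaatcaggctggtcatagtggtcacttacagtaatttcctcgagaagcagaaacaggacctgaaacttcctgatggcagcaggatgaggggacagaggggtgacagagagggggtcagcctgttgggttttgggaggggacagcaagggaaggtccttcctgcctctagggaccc

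The motifs searched, on both strands, were those of C/EBP (TTGCNNAA) and STAT (TTCNNNGAA), factors of the acute phase response, the consensus of NF-kB, and the TATA box (TATAAA). C3 had a C/EBP match that begins 104 bases before the start and Kng1 one that begins 214 bases before it. C1qa had a STAT match that begins 90 bases before the start, C1qb had an NF-kB match that begins 245 bases before it, and matches did not overlap in these 4 windows. Windows were found for 20 of the 32 measured members, and a C/EBP match was present in 3 of 8 for complement and 4 of 12 for coagulation, against 10.5% of 27457 promoters of the same length. The others were 1 of 8 and 1 of 12 for STAT, against 8.68% of promoters, 1 of 8 and 1 of 12 for NF-kB, against 7.6%, and 1 of 8 and 0 of 12 for the TATA box, against 14.3%. The match to the TATA box letters was in C6 and lay after the start, from base 23. The members with a C/EBP match were C1r, C3, C6, F13a1, Klkb1, Kng1 and Plaur, of which C3 and Kng1 were lower in SJG-treated rats, where 2.12% of all genes were. The members were listed with earlier results of these data known, so that share is no fair base for them. Whether a match goes with a call was not tested. No window was found for the other called members, Serping1 and A2m, so C3 and Kng1 were the only called members searched. A match is a description of the letters in a window and does not show binding.

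The initiating molecules of the classical pathway were measured through 5 genes, all with a log2 fold change between -0.65 and -0.52 and none past both thresholds. C1qa, C1qb and C1qc encode the chains of C1q, which recognises antibody and dying cells, and no other protein-coding gene lies between neighbours of this trio. C1qa had log2 signals of 6.19, 6.58 and 6.52 in the SJG arrays, against 6.92, 7.4995 and 6.45 in the diabetic arrays. C1qb had 6.25, 6.07 and 6.19 in the SJG arrays, against 7.003, 7.61 and 5.86 in the diabetic arrays. In both genes diabetic replicates 1 and 2 were above all SJG arrays, and diabetic replicate 3 was inside the SJG range for C1qa and below it for C1qb. C1qc had 5.956, 5.613 and 5.940 in the SJG arrays, against 6.135, 6.970 and 5.962 in the diabetic arrays, so that its groups were separated only by the small gap between diabetic replicate 3 and SJG replicate 1. The log2 fold changes were -0.53 (standard error 0.253) for C1qa, -0.65 (standard error 0.350) for C1qb and -0.52 (standard error 0.254) for C1qc, each with a limma adjusted p = 0.772.

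C1r and C1s encode the proteases that C1q activates, and they are also neighbours on the chromosome. C1r had log2 signals of 7.67, 7.39 and 8.29 in the SJG arrays, against 8.12, 9.16 and 7.96 in the diabetic arrays. C1s had 6.38, 6.31 and 6.99 in the SJG arrays, against 6.50, 8.18 and 6.55 in the diabetic arrays. For both proteases diabetic replicate 2 was far above the other arrays, while SJG replicate 3 was above diabetic replicates 1 and 3, and the groups overlapped. The log2 fold change was -0.63 (95% interval -1.33 to 0.08) for C1r and -0.52 (95% interval -1.38 to 0.35) for C1s.

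Cfb encodes factor B, the protease of the alternative pathway. Its log2 signals were 4.94, 5.13 and 5.16 in the SJG arrays, against 5.10, 5.45 and 4.97 in the diabetic arrays, a log2 fold change of -0.10 (95% interval -0.50 to 0.31). The groups of Cfb overlapped, with diabetic replicate 2 highest. C5, C6, C7 and C9 encode terminal components, and none of the 4 passed both thresholds. C7, which anchors the growing pore in the membrane, had log2 signals of 8.62, 8.44 and 8.89 in the SJG arrays, against 9.07, 10.2 and 8.63 in the diabetic arrays (log2 fold change -0.66, standard error 0.339). C5, which releases the anaphylatoxin that draws in neutrophils, had log2 signals of 8.27, 7.91 and 8.38 in the SJG arrays, against 8.53, 9.12 and 7.59 in the diabetic arrays. Diabetic replicates 1 and 2 were above all SJG arrays in both genes, and diabetic replicate 3 was within the SJG range for C7 and the lowest array of all for C5. The log2 fold change was -0.22 (standard error 0.324) for C5, -0.43 (standard error 0.309) for C6 and 0.03 (standard error 0.184) for C9, which had signals of 2.99 to 3.39 in SJG arrays and 3.02 to 3.36 in diabetic arrays.

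C3ar1 encodes the receptor for the anaphylatoxin released from C3, which is carried by macrophages and other myeloid cells. Its log2 signals were 5.64, 5.19 and 5.83 in the SJG arrays, against 6.11, 6.54 and 5.66 in the diabetic arrays. Diabetic replicate 3 was within the SJG range and the other diabetic arrays were above it. The unadjusted p was under 0.05, but the log2 fold change of -0.55 (standard error 0.247) is a 1.46-fold decrease and did not reach the fold threshold.

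Among the inhibitors, Serping1 encodes the C1 inhibitor, which blocks C1r and C1s and also plasma kallikrein. Its log2 signals were 7.97, 6.95 and 6.83 in the SJG arrays, against 8.17, 8.57 and 7.80 in the diabetic arrays. The overlap was confined to SJG replicate 1, which lay above diabetic replicate 3. The means were 7.25 ± 0.626 with SJG and 8.18 ± 0.385 in the diabetic rats (SD, n = 3 each), a log2 fold change of -0.93 (standard error 0.301, 1.91-fold lower, limma adjusted p = 0.746). Serping1 passed both thresholds with each array left out in turn and did not pass with the unmoderated test. Cd55, which encodes the decay-accelerating factor of cell surfaces, had log2 signals of 6.70, 6.04 and 5.90 in the SJG arrays, against 6.47, 6.79 and 5.84 in the diabetic arrays, and its groups overlapped (log2 fold change -0.16, 95% interval -0.76 to 0.45).

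**Figure D2:**
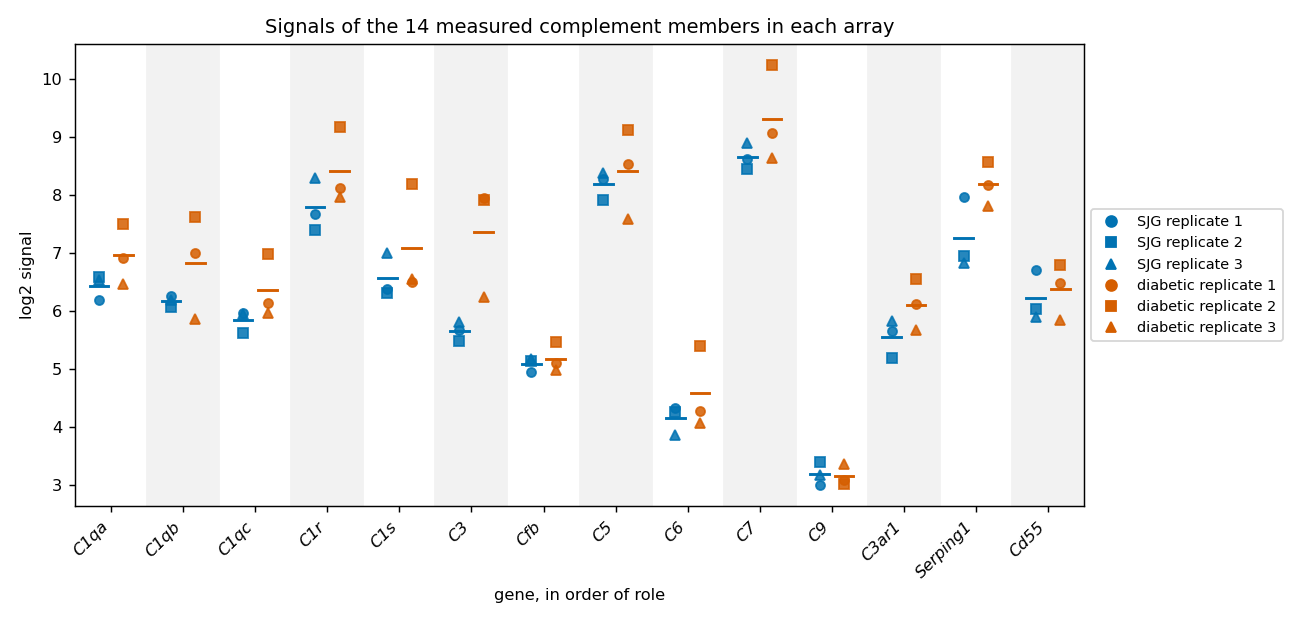
Log2 signal (y axis) of the 14 measured complement members (x axis) in each array, SJG left and diabetic right of each gene's position, with a bar at the group mean. Diabetic replicate 2 is the highest array for 12 of the 14 genes, and diabetic replicate 3 lies among the SJG arrays for most.

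The 3 diabetic arrays took different places in these genes. Diabetic replicate 2 was the highest of the 6 arrays for 12 of the 14 complement members and above the SJG range for 13. Diabetic replicate 1 was above the SJG range for 8, and diabetic replicate 3 was above it for 2, within it for 9 and below it for 3. Over all genes, diabetic replicates 1, 2 and 3 were above the SJG range for 28.9%, 30.4% and 22.2% and below it for 25.3%, 31.6% and 21.6%. The mean log2 signal of the complement members was 6.25, 6.05 and 6.27 in the SJG arrays, against 6.67, 7.32 and 6.21 in the diabetic arrays.

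Without diabetic replicate 3, 10 of the 14 complement members were lower, against 5.58% of all genes in that comparison. C3, Serping1, C1qa, C1qb, C1qc, C1r, C3ar1, C5, C6 and C7 were these 10, and C1s, Cfb, C9 and Cd55 were not among them. C3, Kng1 and C1qb then also passed after adjustment over all genes, with limma adjusted p = 5.77e-04, adjusted p = 0.00119 and adjusted p = 0.0381, among 166 genes that did. Diabetic replicate 3 was the diabetic array nearest to the SJG arrays for C3 and Kng1 and lay below them for C1qb. These adjusted p-values therefore depend on leaving out the array that differed least from SJG, and are no separate support. Over all alternatives the adjusted p of C3 ranged from 5.77e-04 to 0.9995, that of Kng1 from 0.00119 to 0.9995 and that of C1qb from 0.0381 to 0.9995. Without diabetic replicate 2, 2 complement members were lower, again C3 and Serping1, against 1.28% of all genes, and the median log2 fold change of the complement members was -0.21, against -0.77 without diabetic replicate 3. The log2 fold change of C1qb was -0.26 without diabetic replicate 2 and -1.14 without diabetic replicate 3, and that of C7 was -0.20 and -1.004. C1s, C5, Cfb and Cd55 had log2 fold changes above 0 without diabetic replicate 2, from 0.04 to 0.13.

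**Figure D3:**
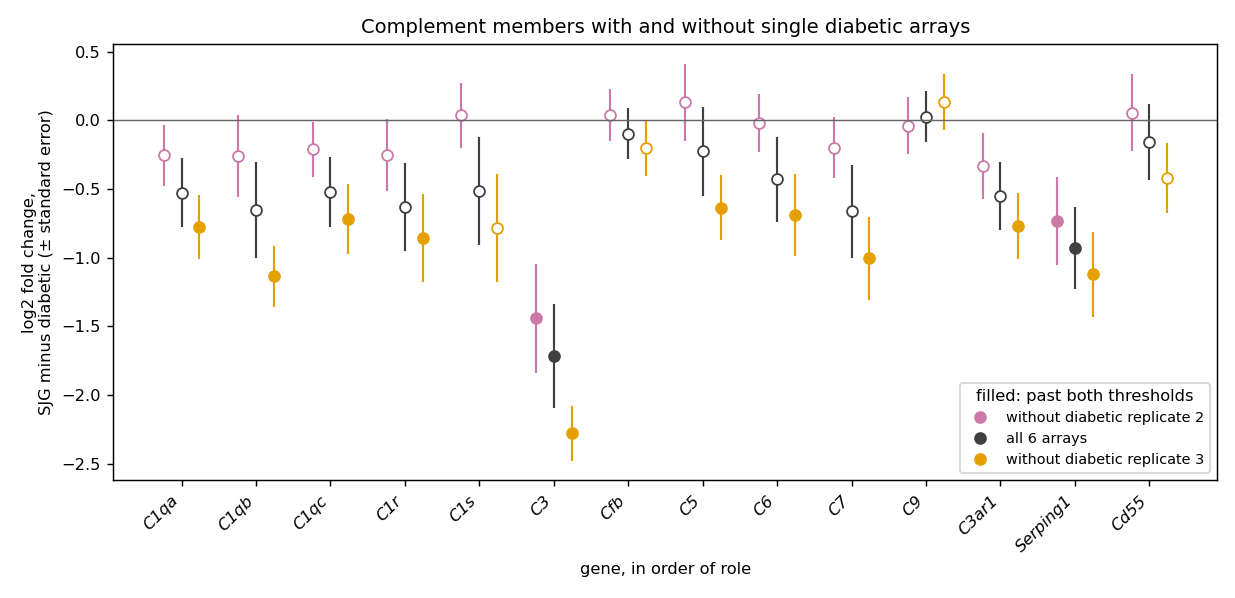
Log2 fold change (y axis, SJG minus diabetic, with the standard error) of the 14 complement members (x axis) with all 6 arrays, without diabetic replicate 2 and without diabetic replicate 3. Filled points passed both thresholds, which were 2 genes with all arrays, 2 without diabetic replicate 2 and 10 without diabetic replicate 3.

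None of the 7 tissue factor and clotting factor genes passed both thresholds, and their log2 fold changes ran from -0.40 to 0.34. F3 encodes tissue factor, the membrane protein that starts coagulation. Its log2 signals were 8.87, 8.60 and 8.99 in the SJG arrays, against 9.01, 9.73 and 8.92 in the diabetic arrays. Only diabetic replicate 2 stood clearly above the SJG arrays, and the log2 fold change of F3 was -0.40 (95% interval -0.91 to 0.11). F2 encodes prothrombin and had log2 signals of 7.14, 6.91 and 7.002 in the SJG arrays, against 6.65, 7.54 and 7.80 in the diabetic arrays. Here diabetic replicate 1 was the lowest array of all, and the log2 fold change was -0.31 (standard error 0.266). Without diabetic replicate 1 it was -0.65 and F2 passed both thresholds, where 333 of 18166 genes were lower. That call depends on leaving out the diabetic array that was lowest for F2, and is no separate support. The log2 fold change of F2 was -0.20 without diabetic replicate 2 and -0.08 without diabetic replicate 3, and F2 passed in neither. Vwf, which encodes von Willebrand factor of endothelium and platelets, had 5.31, 5.02 and 5.58 in the SJG arrays, against 4.95, 5.08 and 4.85 in the diabetic arrays (log2 fold change 0.34, standard error 0.190). The cofactor genes F5 and F8, the protease gene F10 and F13a1, which encodes the subunit of factor XIII that cross-links fibrin, had log2 fold changes of -0.05, -0.28, 0.01 and -0.08, each with overlapping groups.

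Klkb1, which encodes the plasma kallikrein that cleaves kininogen, had log2 signals of 4.54, 4.49 and 3.95 in the SJG arrays, against 3.81, 4.14 and 4.35 in the diabetic arrays. Its groups overlapped, and its log2 fold change of 0.23 (95% interval -0.25 to 0.70) did not have the sign of that of Kng1.

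Of the 4 anticoagulant genes none passed both thresholds. Proc encodes protein C, which thrombin activates when bound to thrombomodulin and which then inactivates clotting cofactors. Its log2 signals were 7.02, 7.13 and 7.08 in the SJG arrays, against 6.52, 6.70 and 6.86 in the diabetic arrays. All SJG arrays were above all diabetic arrays, and the unadjusted p was under 0.05, but the log2 fold change of 0.38 (standard error 0.169) is a 1.31-fold increase and did not reach the fold threshold. Thbd, which encodes thrombomodulin, had log2 signals of 5.56, 5.66 and 5.59 in the SJG arrays, against 5.12, 6.07 and 5.44 in the diabetic arrays, with the SJG arrays between the diabetic ones. Pros1, which encodes the cofactor of protein C, and Tfpi, which encodes the inhibitor of the tissue factor pathway, did not pass either, at -0.33 (95% interval -0.96 to 0.30) for Pros1 and -0.09 (95% interval -0.68 to 0.50) for Tfpi. Pros1 had log2 signals of 7.38, 6.58 and 7.57 in the SJG arrays, against 7.45, 7.98 and 7.09 in the diabetic arrays, and its groups overlapped.

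The plasminogen activators start fibrinolysis, the breakdown of clots. Plau, which encodes urokinase, had log2 signals of 10.52, 10.53 and 10.74 in the SJG arrays, against 10.74, 10.54 and 10.66 in the diabetic arrays. Its groups overlapped, and the log2 fold change was -0.05 with a 95% interval from -0.42 to 0.32. Plat, which encodes tissue plasminogen activator, had log2 signals of 9.15, 8.87 and 9.08 in the SJG arrays, against 9.16, 9.81 and 9.15 in the diabetic arrays, with diabetic replicate 2 alone standing apart (log2 fold change -0.34, standard error 0.211). Plaur, which encodes the urokinase receptor, had a log2 fold change of -0.02 (95% interval -0.40 to 0.35).

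A2m encodes alpha-2-macroglobulin, which traps proteases of many kinds and is an acute phase protein in the rat. Its log2 signals were 4.11, 3.80 and 4.33 in the SJG arrays, against 4.59, 6.35 and 4.31 in the diabetic arrays. Diabetic replicate 2 was far above the other 5 arrays, and diabetic replicate 3 was inside the SJG range. The log2 fold change was -1.01 (standard error 0.426, 2.01-fold lower, limma adjusted p = 0.772), and it was -0.37 without diabetic replicate 2, where A2m no longer passed. A2m also failed without SJG replicate 1 (-1.02) or SJG replicate 2 (-0.87). Serpina1, which encodes alpha-1-antitrypsin, an inhibitor of neutrophil elastase, had a log2 fold change of 0.08 (95% interval -0.35 to 0.52).

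**Figure D4:**
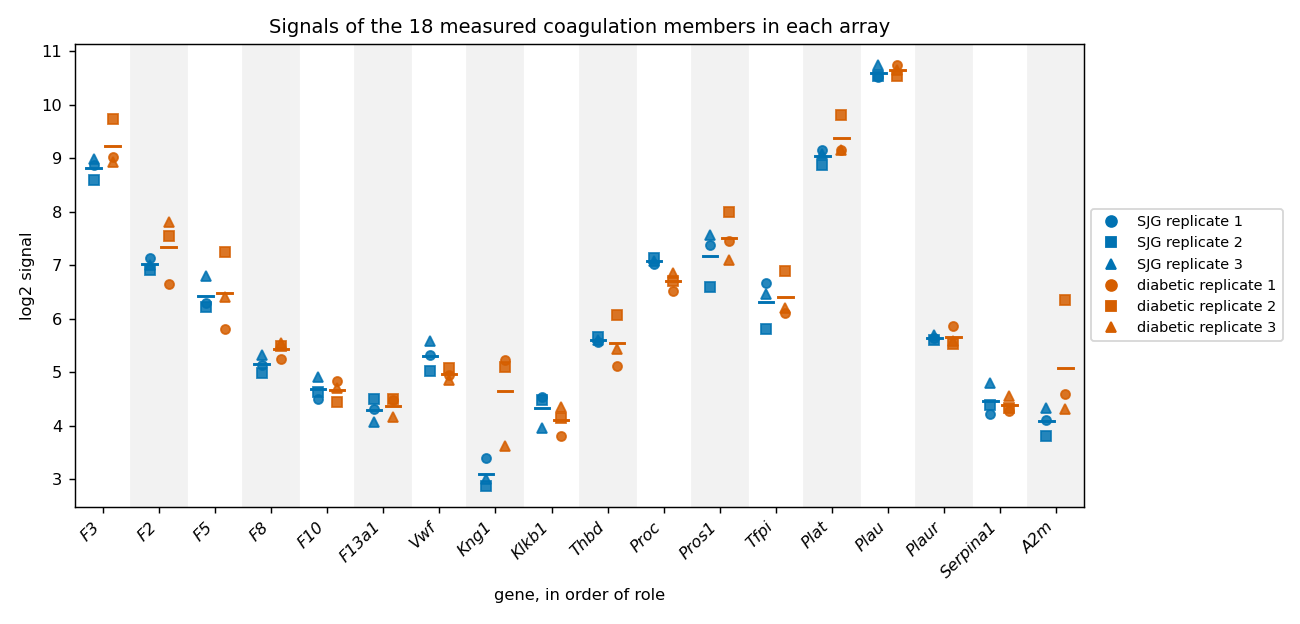
Log2 signal (y axis) of the 18 measured coagulation members (x axis) in each array, SJG left and diabetic right of each gene's position, with a bar at the group mean. The groups are apart for Kng1 (SJG lower) and Proc (SJG higher), the mean of A2m in the diabetic group is raised by diabetic replicate 2, and Plau is nearly level.

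The mean log2 signal of the coagulation members was 6.10, 5.92 and 6.16 in the SJG arrays, against 6.10, 6.52 and 6.12 in the diabetic arrays. Diabetic replicate 1, which was above the SJG range for 8 of 14 complement members, was above it for 6 and below it for 6 of the 18 coagulation members, where 28.9% of all genes were above and 25.3% below. Without diabetic replicate 3, 2 of 18 coagulation members were lower, Kng1 and A2m, where 5.58% of all genes were.

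Further genes of both cascades were taken from lists of their regulators, receptors and remaining components. Of 26 other complement genes 3 were lower and none was higher, where 2.12% of all genes were lower and 0.991% higher. Their median log2 fold change was -0.11. The called genes were Clu, which encodes clusterin, an inhibitor of the terminal pore and a marker of injured tubules, at -1.37 on the log2 scale (standard error 0.486), Itgam, which encodes a chain of complement receptor 3 on myeloid cells, with -0.77 (standard error 0.229), and Cfp, which encodes properdin, the stabiliser of the alternative pathway, with -0.60 (standard error 0.265). Itgam was among the genes singled out by the study from the same arrays, and its direction here is no separate support. The lectin pathway genes Masp1, Masp2, Mbl1 and Mbl2 and the terminal component genes C8a, C8b and C8g did not pass.

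Of 26 other genes of coagulation and fibrinolysis 3 were lower and 1 was higher, against the same shares of 2.12% and 0.991% of all genes. Their median log2 fold change was 0.05. Anxa2 and S100a10 encode the subunits of a cell surface complex that binds plasminogen and its activator, with -0.84 for Anxa2 (standard error 0.260) and, for S100a10, -0.72 (standard error 0.263) on the log2 scale. Anxa2 had log2 signals of 7.37, 7.41 and 7.49 in the SJG arrays, against 8.37, 8.79 and 7.62 in the diabetic arrays, without overlap. Serpine2, which encodes the thrombin inhibitor protease nexin, had -0.77 (standard error 0.331), and in all 3 genes the SJG arrays lay below the diabetic arrays. Over the 26 genes all SJG arrays lay below all diabetic arrays for these 3 and above them for 4. Over all genes 5.3% lay below and 5.2% above. F13b, which encodes the carrier subunit of factor XIII, was higher by 0.72 on the log2 scale (standard error 0.265), with overlapping groups. The fibrinogen chain genes, which are no members, were lower in all 3 cases, with log2 fold changes from -1.87 to -1.60. Fgg, one of them, was also singled out by the study from the same arrays, so its direction here is no separate support.

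Of the markers of other cells and states, only some moved with the complement members, and their part in the results was not tested. The median log2 fold change was -0.68 for macrophage and myeloid markers, -0.997 for tubule injury markers and -0.19 for endothelial markers. It was 0.07 for hepatocyte, 0.03 for neutrophil, 0.26 for platelet and 0.92 for red blood cell markers. Of 15 macrophage and myeloid markers 8 were lower and none was higher, where 2.12% of all genes were lower and 0.991% higher. The mean log2 signal of these markers was 5.77 to 6.09 in SJG arrays and 5.997 to 7.21 in diabetic arrays. Diabetic replicate 3, at 5.997, lay within the SJG range for these markers, as it did for the complement members. Whether weak markers such as Ms4a7, with signals from 3.70 upwards, were above background was not tested. Of 13 tubule injury markers, which also hold Clu, 7 were lower, where 2.12% of all genes were. Their means were 6.19 to 6.71 in SJG arrays and 6.87 to 7.93 in diabetic arrays. Of 6 hepatocyte markers none was lower or higher, and Alb, which encodes the most abundant liver plasma protein, had log2 signals of 5.27 to 5.91 in SJG arrays and 4.90 to 7.13 in diabetic arrays, with diabetic replicate 3 highest. Of 9 endothelial markers none passed, although their means, 6.92 to 6.97 in SJG arrays and 7.04 to 7.23 in diabetic arrays, did not overlap. Of 9 neutrophil and 5 platelet markers none passed. Of 4 red blood cell markers 3 were higher, where 0.991% of all genes were, with means of 7.06 to 7.72 in SJG arrays and 6.09 to 6.90 in diabetic arrays.

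**Figure D5:**
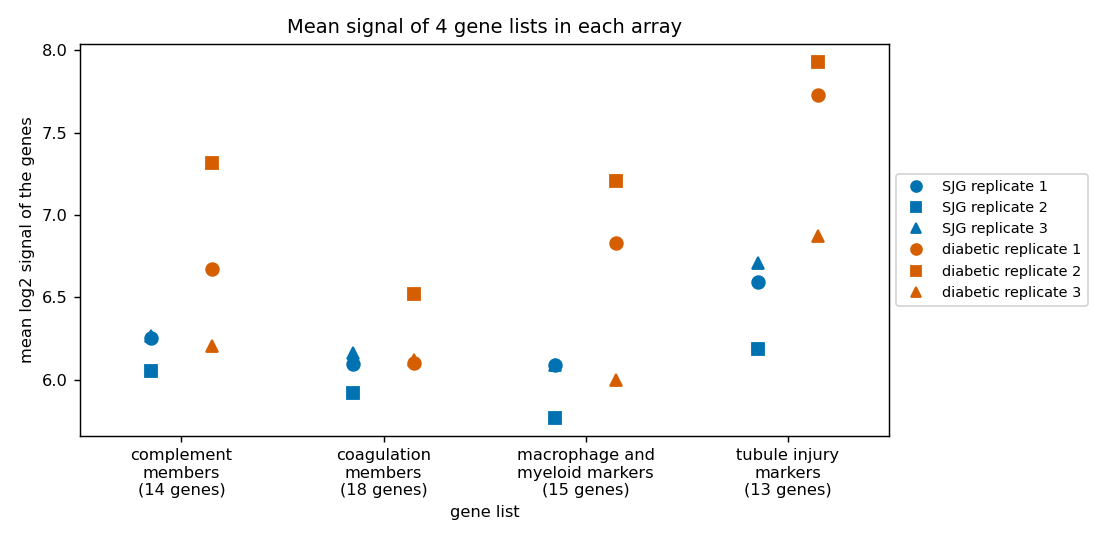
Mean log2 signal (y axis) of the complement members, the coagulation members, macrophage and myeloid markers and tubule injury markers (x axis) in each array, SJG left and diabetic right. Diabetic replicate 3 lies within the SJG range for the first 3 lists and just above it for tubule injury, at 6.87 against at most 6.71.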

How the data were processed

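Kidney RNA was labelled with biotin and hybridised to the arrays, 3 in each group. The values deposited by the authors, for 36685 transcript clusters, are on a log scale that was taken as log2, because the highest value, 13.7, would as a natural log exceed a 16-bit scanner reading. How background was corrected, arrays normalized and probes summarised is not stated in the labels or methods. No further normalization was applied. Transcript clusters were named through the platform annotation with gene numbers matched to GRCr8 (18394 of 18511 that name a single gene). Transcript clusters naming several genes (575) or none (17599) were left out, and the brightest represented a gene, leaving 18166 genes. Groups were compared with limma 3.58.1 in R 4.3.3 (lmFit, eBayes, SJG minus diabetic, no block), with Benjamini-Hochberg adjustment over all genes, and a call needed both a fold change above 1.5 and p under 0.05 before adjustment. The arrays carry no detection call, and their number limits the precision. The code was tested on simulated data.

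The members and gene lists were chosen with earlier results of these data known. All members are accounted for. Values per array are given for called members, members whose groups do not overlap and the brightest members of each role, and others were added after their values were seen. Promoter windows are from a RefSeq table of GRCr8, and where a gene had several starts the first listed was used. Alternatives were trend and robust variance, the unmoderated equal-variance test, array weights, quantile normalization, averaging the transcript clusters of each gene, centring on the median, genes above the median signal, the replicate number as a block, fold changes of 1.2 and 2, and leaving out each array.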

Additional observations from a re-analysis of the deposited data

How the results depend on the processing

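The 2 complement members called lower were 1 with the unmoderated test and at a fold change above 2, and ranged from 2 to 10 when single arrays were left out. The 10 were reached without diabetic replicate 3, where 1014 of 18166 genes were lower. There were 4 without SJG replicate 3, where 396 of 18166 genes were lower. The 2 coagulation members called lower were 1 with trend and robust variance, with the unmoderated test and with quantile normalization, 0 among genes above the median signal, where Kng1 and A2m are not tested, and 1 to 3 when single arrays were left out. Of all 18166 genes, 339 were lower with trend and robust variance, 77 with the unmoderated test and 298 with quantile normalization. At a fold change above 2, 81 were lower, and with single arrays left out 223 to 1014 were. Among the 9083 genes above the median signal 236 were lower. The medians ranged from -0.77 to -0.21 (complement) and from -0.19 to -0.01 (coagulation) over the arrays left out. C3 passed both thresholds under all 14 alternatives other than the fold changes, with log2 fold changes of -2.28 to -1.42, and Kng1 under all 13 in which it was tested, with -2.06 to -1.26. Serping1 lost its call with the unmoderated test, and A2m under 6 of 13 alternatives. The cause of these changes was not tested.

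The replicate number as a block left both counts at 2. The labels share a replicate number across groups and do not say whether it marks a pair. Letters of the unexplained title codes also recur across groups, and were not used as a block. C is shared by SJG replicate 1 and diabetic replicate 1, and E by SJG replicate 3 and diabetic replicate 2. Same-numbered arrays had correlations of deviations of -0.02, -0.29 and -0.0013 across genes, and differently numbered arrays had -0.26 to 0.29. With 3 arrays per group these values cannot show whether arrays were paired. With the block 443 genes were lower and 191 higher, against 385 and 180 without it. The whole-series counts without diabetic replicate 3 were 1014 lower and 435 higher, and with the unmoderated test 77 and 76. Without detection calls, whether genes such as Kng1 and C9 were above background was not tested.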
